A study of Mus musculus with 12 samples.

Results

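The regions described here are open-chromatin peaks that lie far from annotated gene starts in cultured mouse muscle cells. They were taken from a merged peak table as the peaks annotated intergenic, more than 50 kb and at most 200 kb from the nearest annotated gene start, with no repeat element or CpG island in their annotation and a mean of at least 5 tags per 10 M over the 6 libraries. The rule kept 3087 of the 38244 peaks in the table. It used position and mean level, and no difference between conditions. A peak with a mean under 5 in either group could pass only through the level of the other group. The 3087 peaks are called far intergenic peaks below.

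Peaks of ATAC-seq mark DNA that the Tn5 transposase can reach, which is DNA where nucleosomes are moved aside. Far from promoters such sites are mostly enhancers, elements bound by transcription factors that act on genes through looping, and insulator sites bound by CTCF. Enhancers are known to differ between cell types and to respond to signals more than promoters do. In muscle cells many are bound by MYOD and MEF2 family factors, together with AP-1, TEAD and RUNX proteins. The nearest gene, by which each peak is named here, is an annotation and not a known target.

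The study asked how gene regulation in muscle is altered in cancer cachexia, the wasting that accompanies tumours. Chromatin was measured in C2C12, a mouse muscle precursor line labelled with the C3H background, after the confluent cells had been differentiated toward myotubes in horse serum. One group, Ctrl, was labelled as control, and the other, C26, was kept for 24 hours in medium conditioned by Colon-26 carcinoma cells, with 3 libraries in each. PolyA RNA from muscle of C57BL/6 mice, 3 injected with PBS and 3 with 500000 Lewis lung carcinoma (LLC) cells and collected after 22 days, served as another readout for the genes nearest to the peaks. The medium of the control wells is not described. The cells are a single line, the labels call their type myoblast while the titles say myotube, and they do not say whether the 3 wells of a group came from separate cultures, so the p-values measure the spread between these libraries, which may be technical. The muscle, sex and age of the mice are not given.

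Library totals ran from 10.1 to 18.2 M tags. Ctrl 1 stood apart: 27% of its tags lay in peaks, against 12 to 17.9% in the other 5 libraries. Ctrl 3, at 17.9%, also lay above the C26 libraries, at 12 to 13.5%, while Ctrl 2, at 13.1%, did not. The deposited values are scaled to 10 M tags in all, so Ctrl 1 is high at nearly every peak. The median log2 difference of all 37358 peaks tested was -0.54 in C26 against Ctrl, and still -0.26 without Ctrl 1. Division of each library by its median ratio to the others brought the median with all libraries to -0.02. Each result below is therefore given as deposited and after this median scaling, and with and without Ctrl 1 where that changes it. On the scaled values the lowest correlation between 2 libraries of a group was 0.937 and the highest between groups was 0.856. A peak within 1 kb of the start was listed for 4 of 12 muscle genes (Myod1, Des, Ttn and Chrna1) and for none of Myog, Myf5, Mef2c, Ckm, Acta1, Myh3, Tnnt2 and Myl1. The same count was 4 of 5 for mesenchymal genes, 1 of 4 for endothelial genes (Tek) and 0 of 5 each for immune, epithelial and neural genes. The muscle identity in the labels thus had few of its defining promoters among the peaks.

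RefSeq sequence was at hand for the far intergenic peaks that overlie the start of a transcript which the peak annotation did not count. Of the 3087 peaks, 64 (2.07%) overlapped a start window of RefSeq (GRCm38.p6, the assembly that mm10 represents), which runs from 250 bases before a transcript's start to 50 bases after it. The starts belonged to 59 long non-coding RNAs and 5 protein-coding genes, and 30 windows lay wholly inside the peak. The 64 peaks had a median level of 34.1 tags per 10 M, against 24.5 for the other far intergenic peaks. The 5 windows printed here are examples of such transcript starts and do not stand for the far intergenic peaks as a whole. Among the 30 they have the 2 highest and 2 lowest differences after scaling and the highest mean level, so they were chosen after their values were seen. Each is written 5' to 3' on the strand of its transcript, and capitals mark letters that match one of 9 motifs, searched on both strands.
Gm36199, chr17:29434568-29434867, plus strand: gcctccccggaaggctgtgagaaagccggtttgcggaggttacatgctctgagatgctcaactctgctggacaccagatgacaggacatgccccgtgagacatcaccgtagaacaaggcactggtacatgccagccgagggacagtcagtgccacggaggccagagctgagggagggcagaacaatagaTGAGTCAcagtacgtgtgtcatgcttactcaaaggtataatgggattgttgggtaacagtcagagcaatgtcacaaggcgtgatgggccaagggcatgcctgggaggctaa
Gm13816, chr2:92751232-92751531, plus strand: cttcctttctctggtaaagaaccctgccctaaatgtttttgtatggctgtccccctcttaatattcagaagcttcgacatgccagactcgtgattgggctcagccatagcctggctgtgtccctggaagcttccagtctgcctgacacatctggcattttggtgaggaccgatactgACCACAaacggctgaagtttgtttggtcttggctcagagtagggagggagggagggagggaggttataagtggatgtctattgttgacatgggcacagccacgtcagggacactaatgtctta
Gm33448, chr6:100163275-100163574, minus strand: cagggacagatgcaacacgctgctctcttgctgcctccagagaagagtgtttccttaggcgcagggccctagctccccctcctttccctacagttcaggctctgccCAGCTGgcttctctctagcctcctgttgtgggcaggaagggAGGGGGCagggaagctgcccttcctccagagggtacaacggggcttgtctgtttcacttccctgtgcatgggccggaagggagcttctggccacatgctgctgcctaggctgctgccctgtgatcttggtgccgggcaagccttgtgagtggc
Gm35621, chr6:8623057-8623356, plus strand: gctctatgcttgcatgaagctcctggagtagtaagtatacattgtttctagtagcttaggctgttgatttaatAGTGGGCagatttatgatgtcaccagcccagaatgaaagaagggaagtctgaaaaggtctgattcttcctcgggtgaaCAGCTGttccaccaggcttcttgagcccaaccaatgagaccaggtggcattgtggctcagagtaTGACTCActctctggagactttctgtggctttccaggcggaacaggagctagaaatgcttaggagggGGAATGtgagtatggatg
Gm35692, chr17:45828833-45829132, minus strand: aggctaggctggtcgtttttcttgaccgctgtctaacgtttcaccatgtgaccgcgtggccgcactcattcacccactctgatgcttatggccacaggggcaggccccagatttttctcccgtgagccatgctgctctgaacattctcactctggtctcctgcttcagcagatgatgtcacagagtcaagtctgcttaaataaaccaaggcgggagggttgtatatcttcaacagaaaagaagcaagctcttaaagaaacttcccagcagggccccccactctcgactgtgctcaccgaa
The Gm36199 window lies in a peak 56.1 kb upstream of Pim1, which encodes a serine/threonine kinase induced by cytokines. It holds 1 AP-1 match (TGANTCA), the motif of FOS and JUN dimers. Its peak had 52.7, 30.4 and 37.6 tags per 10 M in Ctrl 1 to 3 and 44.1, 43.7 and 50 in C26 1 to 3. As deposited the groups overlapped (log2 difference 0.22 ± 0.38 (SE), limma adjusted p = 0.676, n = 3 each), and after scaling the peak was higher in C26 by 0.74 ± 0.13 (SE, limma adjusted p = 2.01e-05).

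The Gm33448 window lies in a peak 124 kb downstream of the start of Rybp, which encodes a subunit of Polycomb complexes. It holds 1 E-box of the kind bound by myogenic factors (CAGCTG) and 1 CTCF core (AGNGGGC). Its peak fell from 116, 65.5 and 79.6 tags in Ctrl 1 to 3 to 25.4, 34.4 and 31.3 in C26 1 to 3. All C26 libraries were below all Ctrl libraries, as at 34% of all peaks tested as deposited. The log2 difference was -1.46 ± 0.37 (SE, limma adjusted p = 0.00898) as deposited and -0.94 ± 0.13 (adjusted p = 1.18e-07) after scaling. The call as deposited was lost without Ctrl 3 or any 1 C26 library (limma adjusted p from 0.141 to 0.325). It was the 1 peak of the 64 called as deposited, where limma called 1.15% of all peaks tested higher and 1.88% lower (3.03% in all). After scaling 11 of the 64 were called higher and 7 lower, against 17% and 12.7% of all peaks tested (29.8% in all).

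The Gm13816 window near Chst1, a sulfotransferase gene, holds 1 RUNX match (TGTGGT). The Gm35621 window near Glcci1 holds 1 match each to AP-1, the E-box, TEAD (GGAATG) and the CTCF core, and the Gm35692 window holds none of the 9. Over all 64 windows the AP-1 letters were present in 26.6%, against 7.81% of all 32817 start windows of the same 300 bases. The E-box was present in 29.7% against 16.3%, RUNX in 23.4% against 16.8%, TEAD in 17.2% against 14.7%, the CTCF core in 17.2% against 25.8% and C/EBP (TTGCNNAA) in 10.9% against 10.8%. STAT letters (TTCNNNGAA) were found in 3 windows (4.69% against 8.29%), and those of the glucocorticoid receptor (1.56% against 0.475%) and NF-kB (1.56% against 0.411%) in 1 window each. The 64 windows were picked for lying under a peak without CpG island annotation, and 59 belonged to long non-coding RNAs. The set of all start windows was not filtered for peaks, CpG islands or gene type, so the shares compare unlike sets. Only 30 of the 64 windows lay wholly inside the peak, and in the others a match may lie outside it. A base could count toward more than 1 motif, and these shares describe letters and not binding. Sequences of the other far intergenic peaks were not analysed here.

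The far intergenic peaks were narrower and lower than promoter peaks. Their median width was 466 bp (middle 50% from 350 to 615 bp), against 714 bp for promoter peaks and 522 bp for all peaks tested. Their median level was 24.8 tags per 10 M (middle 50% from 15.8 to 42.6), against 53.0 for promoters and 30.1 for all. The authors' caller had found 1605 of them (52.0%) in all 6 per-library peak lists, against 84.1% of promoter peaks. Another 110 (3.56%) were in the lists of C26 libraries alone and 64 (2.07%) in those of Ctrl libraries alone. Over all peaks tested these shares were 2.32% and 1.71%, and among intergenic peaks beyond 200 kb 4.99% and 2.31%. The median distance to the gene start was 88.7 kb, with 1645 peaks upstream and 1442 downstream.

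The 3087 peaks were annotated to 1490 nearest genes, of which 775 had 1 peak and 220 had 4 or more. The nearest gene was protein-coding for 2243 peaks and non-coding for 796 (25.8%, against 13.8% over all peaks tested). They were unevenly spread over chromosomes: chromosome 1 held 9.72% of them and 7.05% of all peaks tested, chromosome 13 held 6.71% and 4.30%, while chromosome 11 held 3.79% and 7.51%. By RefSeq, 680 of them (22.0%) lay inside a gene of some kind, mostly long non-coding RNA genes (547), and 112 lay inside a protein-coding gene. The median distance to the nearest edge of a protein-coding gene was 74.2 kb, but to that of a gene of any type it was 12.95 kb. Only 515 peaks were over 50 kb from the edge of any gene, so most are far from an annotated start and not from every gene.

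The highest of them were open in every library. The peak 95.7 kb upstream of Slc1a3, which encodes a glutamate transporter, had 401, 229 and 322 tags in Ctrl 1 to 3 and 205, 192 and 183 in C26 1 to 3. Peaks near Lrrc74a, Irf2bpl, Mtdh, the pseudogene H2afy3 and Cd93 followed, with means from 219 to 251 tags. None of the 6 was called as deposited. After scaling 1 of them, near Cd93, a receptor gene known from endothelial and myeloid cells, differed: by 0.30 ± 0.08 (SE, limma adjusted p = 0.00478), while its difference as deposited was -0.23 ± 0.31 (adjusted p = 0.577).

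A larger share of the open-chromatin signal lay in far intergenic peaks in each C26 library than in any Ctrl library. These peaks held 6.43, 6.38 and 6.28% of the tags in peaks in Ctrl 1 to 3 and 7.02, 7.08 and 7.20% in C26 1 to 3. The groups did not overlap, and the means were 6.37 ± 0.08% and 7.10 ± 0.09% (SD, n = 3 each). The two-sided exact permutation test gave p = 0.1, the lowest that 3 against 3 allows (0.12 after adjustment over 6 such comparisons). These shares do not depend on how a library is scaled, and Ctrl 1 lay with the other Ctrl libraries. As a percent of all tags in the library the means were in the other order, 1.23 ± 0.46 in Ctrl and 0.91 ± 0.06 in C26 (SD, n = 3 each, exact permutation p = 0.4). There the groups overlapped, with 1.74% in Ctrl 1, 0.83% in Ctrl 2 and 1.13% in Ctrl 3, against 0.85 to 0.97% in C26.

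The difference was larger against promoters than against other distal peaks. For each 100 tags in promoter peaks the far intergenic peaks held 19.9, 20 and 19.3 tags in Ctrl 1 to 3 and 24.2, 24.6 and 25.5 in C26 1 to 3. Against intergenic peaks within 50 kb of a gene start the ratio was 46.2, 45.9 and 45.6 per 100 tags in Ctrl and 48.2, 48.4 and 48.3 in C26. Against intronic peaks it was 28.0, 27.6 and 27.6 in Ctrl and 28.4 in each C26 library. In these 3 ratios the groups did not overlap (exact permutation p = 0.1 each, adjusted 0.12, n = 3 each). Against intergenic peaks beyond 200 kb the libraries overlapped, with 450 ± 4.25 in Ctrl and 454 ± 2.05 in C26 (SD, n = 3 each, exact permutation p = 0.3).

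**Figure D1:**
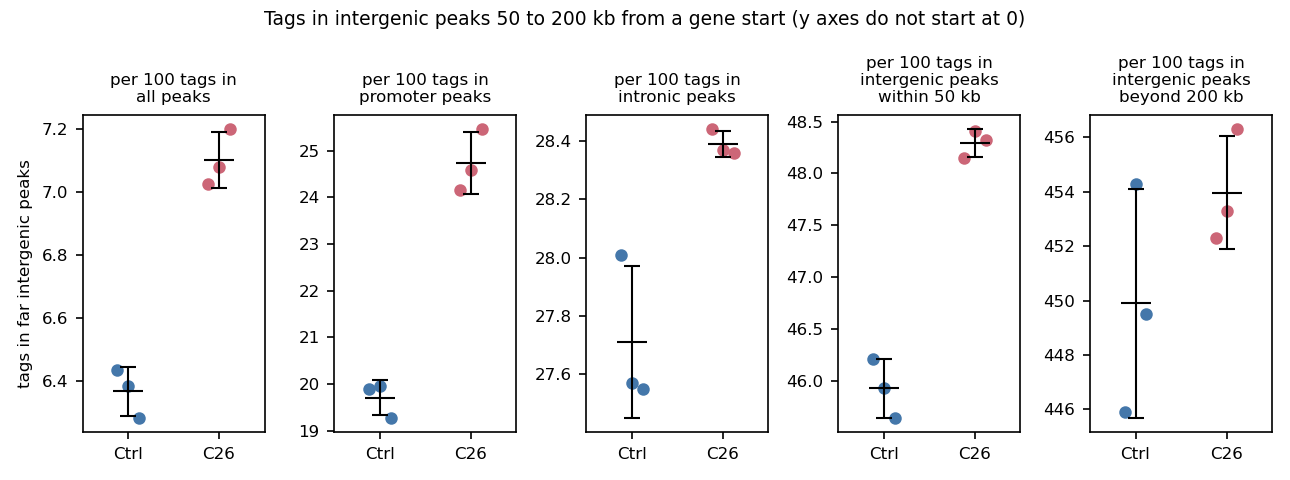
Tags in far intergenic peaks per 100 tags in other peak classes, 1 panel per class and 1 point per library, with the group mean and SD as a bar. C26 libraries lie above Ctrl libraries in the first 4 panels, by the widest margin against promoter peaks (24.2 to 25.5 against 19.3 to 20), and overlap them against intergenic peaks beyond 200 kb.

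Peak by peak, limma on log2(tags + 1) called 60 far intergenic peaks higher and 91 lower in C26 as deposited (adjusted p under 0.05). Over all peaks tested 1.15% were called higher and 1.88% lower (3.03% in all), against 1.94% and 2.95% of the far intergenic peaks. After median scaling 838 were called higher (27.1%, against 17% of all peaks tested) and 295 lower (9.56%, against 12.7%; 29.8% of all peaks tested were called in either direction). Rises made up 39.7% of the calls as deposited and 74.0% after scaling. All 60 rises and 91 falls as deposited were also called in the same direction after scaling, so the scaling added calls and turned none. Without Ctrl 1 the deposited values gave 300 rises (9.72%, where 5.23% of all peaks tested rose) and 210 falls (6.80%, where 7.01% fell; 12.2% of all were called in either direction), among them 60 of the 60 and 89 of the 91.

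The median log2 difference of the far intergenic peaks was -0.39 as deposited and 0.13 after scaling, beside -0.54 and -0.02 for all peaks tested. The gap between the medians was 0.15 in both. Promoter peaks had a median of -0.16 after scaling, intronic peaks 0.10, intergenic peaks within 50 kb 0.04 and those beyond 200 kb 0.11. In single libraries the median log2 level of far intergenic peaks minus that of all peaks was -0.30, -0.31 and -0.34 in Ctrl 1 to 3, and -0.21, -0.18 and -0.17 in C26 1 to 3. The order of the libraries was the same as in the tag shares, with the C26 libraries nearer to the median of all peaks (exact permutation p = 0.1, adjusted 0.12).

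After scaling, calls differed between promoters and distal peaks in direction. After scaling 2.31% of promoter peaks were called higher and 21.7% lower, while 22.7% of intronic peaks and 21.3% of intergenic peaks within 50 kb were called higher and 8.28% and 10.6% lower. Beyond 200 kb it was 25.5% and 10.1%. As deposited, falls outnumbered rises in promoter (0.968% against 0.0517%), intronic (1.96% against 1.2%) and intergenic peaks within 50 kb (2.42% against 1.49%). Far intergenic peaks had the same order (2.95% against 1.94%), while beyond 200 kb 4.23% were called higher and 3.46% lower. Without overlap between the groups 33% of far intergenic peaks (1019) were higher after scaling and 13.7% (422) lower, where 21.7% and 19.4% of all peaks tested were. As deposited 5.51% (170) were higher and 25% (771) lower, where 3.24% and 34% of all peaks tested were.

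**Figure D2:**
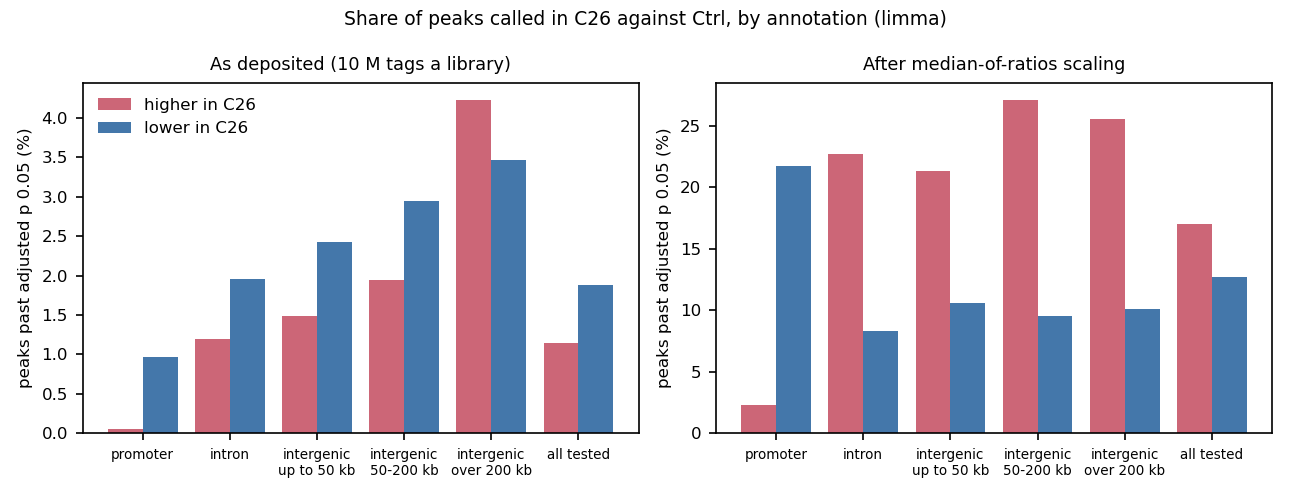
Percent of peaks in each annotation class past adjusted p 0.05 in C26 against Ctrl, as deposited (left) and after median-of-ratios scaling (right), with rises in red and falls in blue. Far intergenic peaks were called lower more often than higher as deposited (2.95% against 1.94%) and higher more often than lower after scaling (27.1% against 9.56%). Promoter peaks were called mostly lower in both.

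After scaling the shares called were much alike over distance, side and gene type, with no test of their differences. On these values 27.2% of peaks at 50 to 75 kb, 26% at 75 to 100 kb, 28.4% at 100 to 150 kb and 26.5% at 150 to 200 kb were called higher, and between 8.23 and 11.1% were called lower. Upstream peaks had 27.8% higher and 9.12% lower, and downstream peaks 26.4% and 10.1%. Peaks nearest to protein-coding genes had 27% higher, and those nearest to non-coding genes 27.1%. As deposited the shares, all under 5%, differed more: 4.4% of peaks nearest to non-coding genes were called lower and 2.50% of those nearest to protein-coding genes, 3.61% downstream and 2.37% upstream, and 2.33% were called higher at 50 to 75 kb and 1.26% at 75 to 100 kb. After scaling, peaks inside a RefSeq gene had 25.4% higher and 11% lower, and those outside 27.6% and 9.14%.

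Median differences were lower at higher levels under both scalings, while the pattern of calls over level depended on the scaling. In the lowest of 4 equal bins by mean level (up to 15.8 tags) the median scaled difference was 0.26, and in the highest (over 42.5 tags) it was 0.05. As deposited the same medians were -0.24 and -0.47. After scaling the share called higher lay between 26.3 and 29.1% in the 4 bins, while the share called lower was 4.53% in the lowest bin and 12.8% in the highest. As deposited 4.15% were called higher in the lowest bin and 0.259% in the highest, and 2.72% and 2.59% lower. Over all peaks tested these shares were 1.15% and 1.88%. Scaled log2 differences of at least 1 were found in 319 rises and 52 falls, and of at least 2 in 53 rises and 1 fall. These cuts were not counted over all peaks tested, so the counts do not set the far intergenic peaks apart.

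The rises called as deposited were mostly at sites with few tags in control cells. These 60 peaks had a median of 5.69 tags in Ctrl and 24.0 in C26, and 43 of them were in no Ctrl peak list. Of the 60, 26 had a Ctrl mean under 5 tags, so they passed the mean filter only through the C26 libraries. The 838 rises after scaling were mostly at sites already open: their median was 21.9 tags in Ctrl as deposited, 106 were in no Ctrl list and 401 were in all 6 lists. Of the 110 peaks found in C26 lists alone, 43 were called higher as deposited and 106 after scaling. The 91 peaks called lower had a median of 37.7 tags in Ctrl and 11.7 in C26, and 28 of them were in no C26 list. Of the 91, 9 had a C26 mean under 5 tags, so they passed only through the Ctrl libraries. The peak lists come from the same libraries, so these counts restate the difference in other terms. In bulk libraries a change in the share of cells open at a site and a change in openness per cell cannot be told apart.

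The largest rise was 54.8 kb upstream of Pla2g4a, which encodes the cytosolic phospholipase that releases arachidonic acid. This peak (chr1:150015816-150016354, mm10) had 0.45, 3.04 and 1.98 tags in Ctrl 1 to 3 and 34.7, 30.9 and 39.0 in C26 1 to 3. Every C26 library was far above every Ctrl library, at a peak picked for its difference. Its log2 difference was 3.78 ± 0.47 (SE, limma adjusted p = 1.78e-11) as deposited and 4.10 ± 0.34 (adjusted p = 1.11e-13) after scaling. Control levels this low make the fitted size depend on the pseudocount of 1.

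Next came a peak 198 kb upstream of Nmur2 (chr11:56238736-56239146), a receptor gene for neuromedin U. It had 2.68, 2.70 and 1.98 tags in Ctrl 1 to 3 and 34.3, 38.9 and 45.0 in C26 1 to 3. Its log2 difference was 3.55 ± 0.45 (SE, limma adjusted p = 7.26e-11). A peak 51.8 kb upstream of Sstr4 (chr2:148343485-148343743), a somatostatin receptor gene, went from 2.68, 1.01 and 0.49 tags to 18.3, 21.5 and 20.1. Both sites had few tags in all 3 Ctrl libraries and more in all 3 C26 libraries. Their Ctrl means, like that of the Pla2g4a peak, were under 5 tags, so these peaks passed the mean filter only through C26. They were also picked for the size of the difference, so the contrast is no further evidence.

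The peak 99.8 kb downstream of the start of Cdc5l (chr17:45333740-45334143), a gene for a splicing factor, had 11.6, 1.35 and 2.97 tags in Ctrl and 38.6, 35.4 and 44.5 in C26. The one near Eef1e1 (chr13:38736247-38736893), which encodes a scaffold protein of the tRNA synthetase complex, had 11.2, 3.38 and 13.3 tags in Ctrl and 49.5, 46.9 and 60.7 in C26. The latter had the highest C26 mean of the 12 rises, 52.4 ± 7.35 tags (SD, n = 3). The others lay near Aebp2 (a Polycomb cofactor gene), Adam28 (a metalloprotease gene), Zc3h12c (a gene of the Regnase family of RNases), the pseudogene Gm6498, the microRNA gene Mir680-3, and the non-coding genes Gm13985 and Gm10445. Of these others all but the Mir680-3 peak had a Ctrl mean under 5 tags, so they passed the mean filter only through C26. The 12 log2 differences as deposited ran from 2.40 to 3.78.

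The largest fall was 101.4 kb upstream of Setbp1 (chr18:79210583-79211002), a gene for a SET-binding nuclear protein. It went from 38.4, 23.6 and 36.6 tags in Ctrl 1 to 3 to 3.12, 2.78 and 7.14 in C26 1 to 3. Its log2 difference was -2.72 ± 0.45 (SE, limma adjusted p = 1.55e-06) as deposited and -2.25 ± 0.29 (adjusted p = 2.93e-08) after scaling. It was the only far intergenic peak to fall by 2 or more after scaling. Its C26 mean was 4.35 tags, so it passed the mean filter only through Ctrl.

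A peak 99.9 kb downstream of the start of Lbr (chr1:181742248-181742811), the lamin B receptor that tethers heterochromatin to the nuclear envelope, went from 60.3, 34.8 and 46.0 tags to 8.97, 11.1 and 12.4. The peak 87 kb upstream of Ice1 (chr13:70724261-70724984), which encodes a subunit of the little elongation complex, went from 158, 86.4 and 76.1 tags to 28.1, 22.9 and 24.2. The peak 168.8 kb downstream of the start of Nrg1 (chr8:31749657-31750493), the neuregulin ligand of ErbB receptors, went from 74.2, 29.0 and 47.5 tags to 9.36, 13.2 and 11.5. Lbr and Ice1 were in all 6 peak lists, and Nrg1 was in the 3 Ctrl lists and in no C26 list.

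The remaining falls of the 12 lay near Trabd2b (a metalloprotease gene that limits Wnt signalling), Tigd2, Lsm5 (a U6 snRNA-binding protein gene), Phactr1 (an actin and phosphatase regulator gene), Fam161a, and the non-coding genes 5430434I15Rik, E130006D01Rik and Gm28979. Their log2 differences as deposited lay between -2.33 and -1.85. The Trabd2b, Phactr1 and Gm28979 peaks had C26 means under 5 tags, so they passed the mean filter only through Ctrl. All 12 rises were called in each fit that left out 1 library, except that 11 of 12 were without C26 3. Of the 12 falls 12 were called without Ctrl 1 or Ctrl 2, 9 without Ctrl 3, 3 without C26 1 and 8 without C26 2 or C26 3. All 24 were called after scaling.

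**Figure D3:**
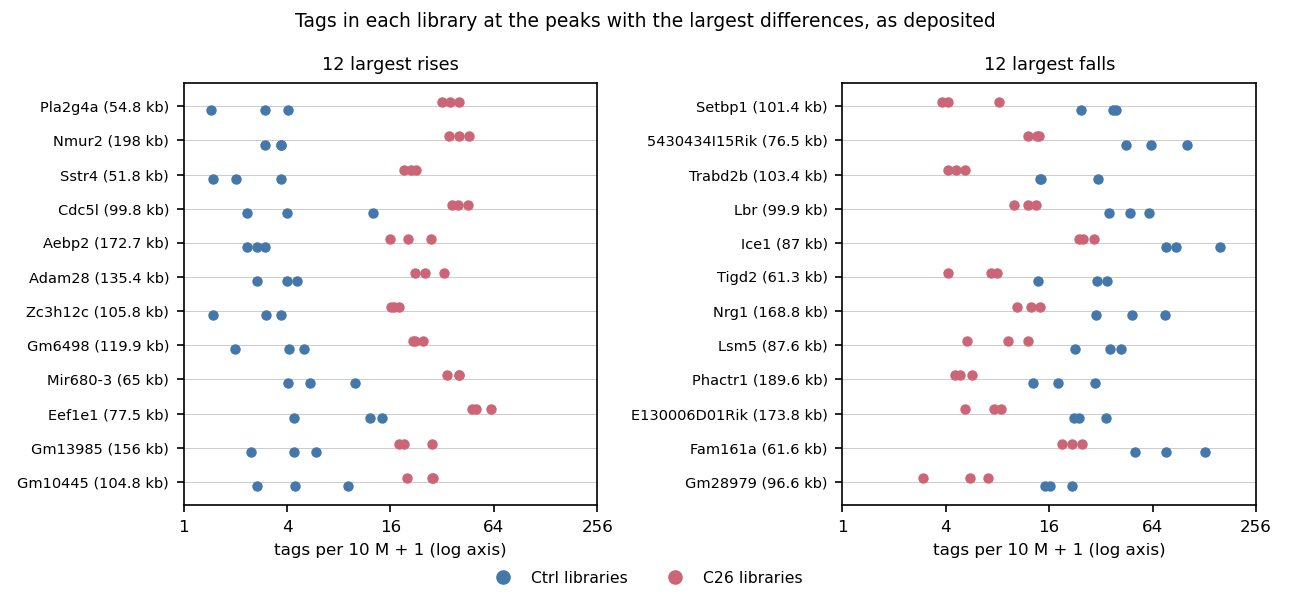
Tags per 10 M plus 1 (log axis, as deposited) in each of the 3 Ctrl (blue) and 3 C26 (red) libraries at the 12 far intergenic peaks with the largest rises (left) and falls (right), named by nearest gene and distance. The groups do not overlap at any of the 24, which were picked for large called differences. As deposited 3.24% of all peaks tested were higher without overlap and 34% lower. The Pla2g4a peak has 0.45 to 3.04 tags in Ctrl and 30.9 to 39.0 in C26.

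The calls as deposited at single peaks named from here on depend on which libraries are used. Beyond the 24 largest changes 23 of the named peaks were called as deposited, and all 23 were also called after scaling, without Ctrl 1 and without Ctrl 2. Of the 23, 1 was called without Ctrl 3, 2 without C26 1 and 3 without C26 2, and all 23 calls were lost without C26 3, with limma adjusted p of the lost calls up to 0.495.

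Peaks that share a nearest gene did not always move together. As deposited 1.15% of all peaks tested were called higher and 1.88% lower, beside which the counts at this and the next loci stand. Around the non-coding gene Gm4668, which had the most called peaks as deposited, 1 of 8 rose and 3 fell. The risen peak, 53.2 kb from the start, had 13.0, 4.05 and 6.92 tags in Ctrl and 24.6, 20.1 and 23.6 in C26. The peak 154.1 kb from the start fell from 105, 51.0 and 65.7 tags to 23, 24.6 and 29.1. At Mir680-3 1 of 7 peaks rose and 1 fell as deposited, and at E130006D01Rik 2 of 7 fell.

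Phactr1 had 3 falls among 6 upstream peaks, at 104.6, 131.6 and 189.6 kb. The one nearest to the gene went from 100, 34.1 and 64.3 tags in Ctrl to 18.3, 27.1 and 25.3 in C26 (log2 difference -1.34 ± 0.39 (SE), limma adjusted p = 0.0265). After scaling all 6 differences were negative, from -1.46 to -0.18, and 3 of them did not pass the test in either fit.

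Rybp had 2 falls among 6 peaks, the 2 farthest from its start: the one over the Gm33448 start whose sequence is given above, and one 159.6 kb from the gene start. The latter went from 84.4, 35.8 and 55.9 tags in Ctrl to 11.3, 17.4 and 18.4 in C26 (log2 difference -1.78 ± 0.40 (SE), limma adjusted p = 0.00146). Fndc1, a gene with fibronectin type III domains, had 2 falls among 8 peaks, and 5430434I15Rik had 2 among 6. Gm13985 had 2 rises among 12.

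At Adam28 all 5 peaks were called higher after scaling and 2 as deposited, where 17% and 1.15% of all peaks tested were. Its scaled differences were larger farther from the gene start, from 0.61 at 63.1 kb, through 1.40 at 65.7 kb, 1.84 at 108.4 kb and 2.69 at 120.5 kb, to 3.31 at 135.4 kb. At the farthest peak the scaled values were 1.99, 2.00 and 2.57 tags in Ctrl 1 to 3 and 37.9, 27.2 and 27.7 in C26 1 to 3. At the nearest they were 39.4, 44.7 and 43.3 tags in Ctrl and 65.1, 72.7 and 59.1 in C26. The groups were apart at both, where 21.7% of all peaks tested were higher without overlap after scaling.

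Some loci had many rises that passed the test only after scaling, and the ones named here were chosen after their values were seen. After scaling 17% of all peaks tested and 27.1% of all far intergenic peaks were called higher, and the counts at these loci were not tested against those shares. Around Cops8, a gene for a subunit of the COP9 signalosome, 10 of 13 peaks were called higher after scaling and none as deposited. Just beyond its downstream peaks lie 4 peaks annotated to Col6a3, a collagen VI chain gene, of which 3 were called higher. All 5 peaks annotated to Tars, the threonyl-tRNA synthetase gene, and all 5 annotated to Gmds, an enzyme gene of GDP-fucose synthesis, were called higher after scaling. At Tars the peak 58 kb upstream had scaled values of 11.5, 9.99 and 9.85 tags in Ctrl 1 to 3 and 35.6, 37.5 and 37.3 in C26 1 to 3.

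**Figure D4:**
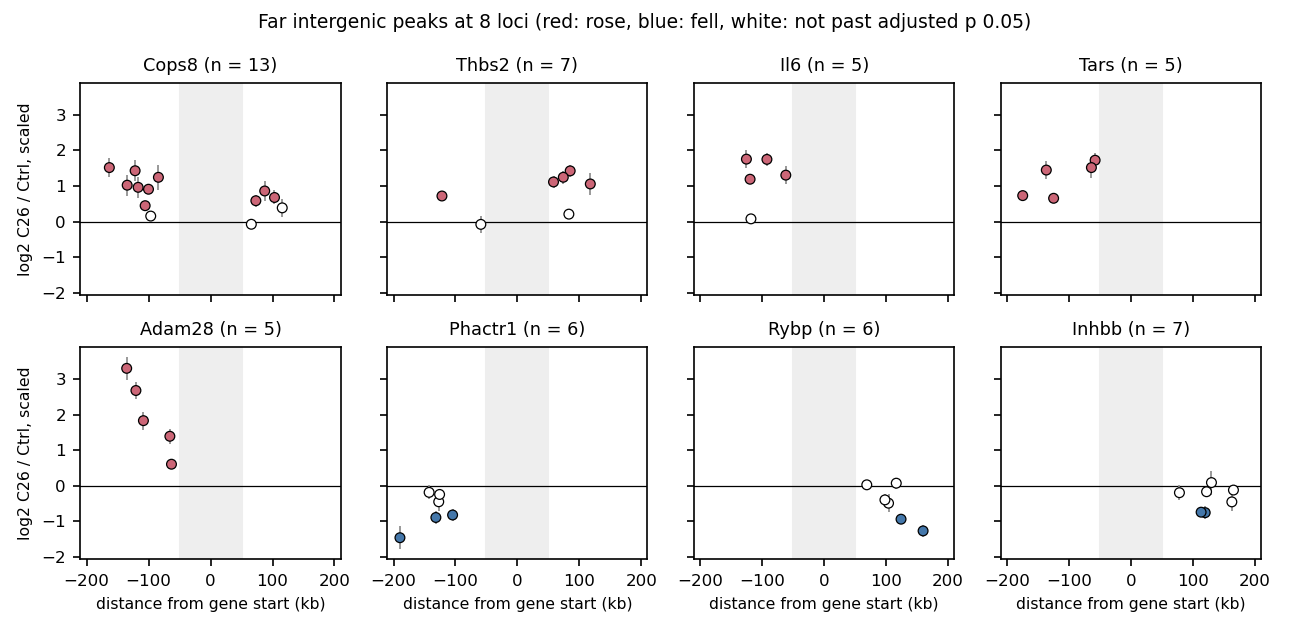
Log2 difference of C26 against Ctrl after median scaling (y axis, with the SE) at each far intergenic peak of 8 loci, by distance from the gene start in kb (x axis, negative is upstream; the grey band marks distances up to 50 kb, which hold no such peaks). Peaks past adjusted p 0.05 are red where they rose and blue where they fell; at Adam28 the 5 peaks run from 0.61 to 3.31, and at Phactr1 3 of 6 fell.

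Genes of immune signalling had the largest share of rises among 12 gene lists. Of 33 peaks nearest to 10 genes of cytokines, NF-kB and STAT signalling 17 were called higher after scaling and 1 lower, with a median difference of 0.52. None was called as deposited, where the median was 0.00. After scaling 17% of all peaks tested were called higher and 12.7% lower, and 27.1% and 9.56% of all far intergenic peaks, beside which the counts of this and the next lists stand. The risen peaks were annotated to Il6 (4 of 5), Cxcl12 (3 of 9), Tnfsf11 (3 of 4), Nfkbiz (2 of 3), Irf8 (2 of 4), Lifr (1 of 4), Il1r1 (1 of 1) and Il33 (1 of 1), and the fallen one to Osmr, the oncostatin M receptor gene. The lists were drawn up with earlier results of these data known, and beyond the 3 peaks of smallest p per list those named below were chosen after their values were seen.

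Il6 encodes interleukin 6, a cytokine that activates STAT3 and is known for its role in cachexia. The 5 far intergenic peaks upstream of it lay 62 to 125.6 kb away. The peak at 92.5 kb (chr5:29920150-29921092) was in no Ctrl peak list and had 20.6, 12.8 and 20.8 tags in Ctrl 1 to 3 and 40.6, 48.2 and 40.4 in C26 1 to 3. Its log2 difference was 1.24 ± 0.40 (SE, limma adjusted p = 0.0582) as deposited, 1.34 without Ctrl 1 (adjusted p = 3.56e-05) and 1.75 ± 0.18 (adjusted p = 5.15e-11) after scaling.

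The other Il6 peaks showed the same order, with 1 exception. At 125.6 kb the scaled values were 9.98, 7.99 and 6.42 tags in Ctrl 1 to 3 and 26.7, 33.9 and 28.3 in C26 1 to 3. At 119.7 kb they were 31.7, 32.4 and 29.6 in Ctrl and 79.1, 64.2 and 74.9 in C26. The peak at 118.3 kb did not pass the test, with 54.7, 53.5 and 57.4 against 54.8, 64.2 and 56.0 (difference 0.07 ± 0.12 (SE), limma adjusted p = 0.667). In the mouse muscle Il6 RNA was below the level tested, at 0.17 ± 0.12 FPKM in PBS and 0.42 ± 0.28 in LLC (SD, n = 3 each).

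Il33 encodes an alarmin cytokine of the interleukin 1 family. Its 1 peak, 55.4 kb upstream, had 6.25, 4.73 and 5.44 tags in Ctrl 1 to 3 and 12.5, 18.7 and 12.9 in C26 1 to 3. The groups did not overlap, where 3.24% of all peaks tested were higher without overlap as deposited. The log2 difference was 1.26 ± 0.47 (SE, limma adjusted p = 0.0912) as deposited and 1.74 ± 0.32 (adjusted p = 3.28e-05) after scaling. Tnfsf11 encodes RANKL, a ligand of the TNF family. Its 3 risen peaks sit within 8.97 kb of each other, with scaled differences from 0.68 to 1.16.

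Peaks near genes of TGF-beta, activin and BMP signalling moved in both directions. Activin and TGF-beta signals limit muscle mass, while BMP signals support it. Of 23 peaks 9 (39.1%) were called higher and 2 (8.70%) lower after scaling, and 2 and 2 as deposited (1.15% and 1.88% of all peaks tested). The 2 rises as deposited were near Ism1, which encodes the secreted protein isthmin, and Bmper, which encodes a BMP-binding protein. At Ism1 the peak 126 kb downstream of the start had 7.15, 6.41 and 0 tags in Ctrl 1 to 3 and 17.9, 16.3 and 21.7 in C26 1 to 3. Its log2 difference was 2.32 ± 0.48 (SE, limma adjusted p = 0.000406) as deposited. It rested on Ctrl 3, the library with 0 tags: without it the difference was 1.33 (adjusted p = 0.396). After scaling it was 2.73 ± 0.42 (adjusted p = 1.18e-06). The Ctrl mean of this peak was 4.52 tags, so it passed the mean filter only through C26.

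At Bmper the peak 98.9 kb upstream had 12.5, 4.05 and 3.46 tags in Ctrl and 35.5, 21.2 and 28.8 in C26 (log2 difference 2.10 ± 0.44 (SE), limma adjusted p = 0.000523). That call was lost without Ctrl 3, C26 1 or C26 3, with limma adjusted p from 0.0537 to 0.108. After scaling all 3 peaks near Ism1 and 3 of 6 near Bmper were called higher. The groups did not overlap at the Ism1 and Bmper peaks given here, which were picked for small p. As deposited 3.24% of all peaks tested were higher without overlap.

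Both falls were downstream of Inhbb, the gene of the activin B subunit. The peak 113.1 kb from its start had 167, 91.8 and 116 tags in Ctrl 1 to 3 and 50.3, 43.0 and 56.9 in C26 1 to 3 (log2 difference -1.27 ± 0.35 (SE), limma adjusted p = 0.0208). The peak at 119.7 kb had 67.9, 31.1 and 43.0 tags in Ctrl and 13.3, 15.6 and 28.3 in C26 (-1.27 ± 0.40, adjusted p = 0.0487). Both calls were lost without Ctrl 3 or any 1 C26 library, with adjusted p from 0.223 to 0.4 for the first and from 0.179 to 0.476 for the second. After scaling the differences were -0.74 and -0.75 (limma adjusted p = 1.73e-07 and 0.00135), and the other 5 Inhbb peaks did not pass in either fit. In the mouse muscle Inhbb RNA was 0.89, 1.37 and 0.98 FPKM in PBS 1 to 3 and 3.1, 5.20 and 5.92 in LLC 1 to 3 (limma unadjusted p = 0.00093, adjusted p = 0.175).

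Matrix genes, which build and remodel the collagen-rich scaffold around fibres, had 16 rises (32%) and 6 falls (12%) among 50 peaks after scaling, near the 27.1% and 9.56% of all far intergenic peaks, and 2 falls as deposited. Thbs2, encoding the matrix glycoprotein thrombospondin 2, had 5 rises among 7 peaks after scaling. Its peak at 85.2 kb had scaled values of 15.5, 20.8 and 23.6 tags in Ctrl 1 to 3 and 59.4, 56.2 and 48.5 in C26 1 to 3. Itgb1, the beta 1 integrin gene, and Col6a3 each had 3 rises among 4.

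The falls as deposited were near Postn and Itga11. Postn encodes periostin, a protein of healing matrix, and its peak at 83 kb went from 40.7, 15.2 and 22.2 tags in Ctrl to 8.97, 5.90 and 9.06 in C26 (log2 difference -1.50 ± 0.44 (SE), limma adjusted p = 0.0284). Itga11 encodes a collagen-binding integrin subunit, and its peak at 61.9 kb went from 48.7, 24.6 and 35.6 tags to 10.5, 9.72 and 15.9 (-1.49 ± 0.41, adjusted p = 0.0192). The Itga11 locus was mixed: after scaling 2 of its 4 peaks were called lower and 1 higher.

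Of 20 myogenic factor genes 6 had far intergenic peaks, 14 in all, and after scaling 4 of these, near Twist2 and Mef2a, were called higher (28.6%, near the 27.1% of all far intergenic peaks) and 0 lower. None passed as deposited. The peak 59.7 kb downstream of the start of Twist2, which encodes a repressor of myogenic factors, had 29.0, 20.9 and 21.3 tags in Ctrl 1 to 3 and 58.9, 48.6 and 56.6 in C26 1 to 3. Its log2 difference was 1.18 ± 0.39 (SE, limma adjusted p = 0.0619) as deposited and 1.70 ± 0.15 (adjusted p = 1.04e-12) after scaling. The peak 89.3 kb upstream of Mef2a, a gene of the MEF2 family, had 20.1, 18.9 and 15.8 tags in Ctrl and 48.8, 34.7 and 42.3 in C26. Neither peak had overlapping groups, where 3.24% of all peaks tested were higher without overlap as deposited.

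Sarcomere and calcium genes had only 3 far intergenic peaks, all upstream of Ankrd1, a stress-induced ankyrin repeat gene of muscle. After scaling 2 of the 3 were called lower. The one at 59.2 kb had 39.8, 23.6 and 29.2 tags in Ctrl and 11.3, 10.8 and 14.8 in C26 (log2 difference -1.24 ± 0.42 (SE), limma adjusted p = 0.0681 as deposited and 0.00717 after scaling). Genes of atrophy, FOXO and mTORC1 signalling had 10 peaks, of which 2, both upstream of the growth factor gene Igf1, were called higher after scaling. The Igf1 peak at 62.3 kb had 6.70, 3.71 and 1.98 tags in Ctrl and 12.9, 11.8 and 8.52 in C26. Its Ctrl mean was 4.13 tags, so it passed the mean filter only through C26.

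Peaks near Wnt, Notch, FGF and axon guidance genes had 8 rises (34.8%) and 4 falls (17.4%) among 23 after scaling, against 17% and 12.7% of all peaks tested. All 3 peaks near Dkk2, a Wnt modulator gene, were called higher, and the one at 167.3 kb was also called as deposited, with 8.04, 3.38 and 7.41 tags in Ctrl and 19.9, 17.0 and 26.4 in C26 (log2 difference 1.65 ± 0.45 (SE), limma adjusted p = 0.0168). The single peak of the Notch ligand gene Jag1 went from 59.0, 27.3 and 41.0 tags to 12.1, 19.8 and 20.9 and was called lower after scaling (-0.68 ± 0.19, adjusted p = 0.00442). Those nearest to the ephrin receptor gene Epha3 and to Axin2, and 1 of 4 near Slit3, were called lower as well.

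AP-1, C/EBP and immediate early genes had 7 rises (30.4%) and 2 falls (8.70%) among 23 peaks after scaling, near the shares of all far intergenic peaks (27.1% and 9.56%), with all 3 peaks near Klf6 called higher and 2 of 8 near Klf4 called higher and 2 lower. Genes of bone, cartilage, tendon and fat had 5 rises (31.2%) and 2 falls (12.5%) among 16. The falls were upstream of Runx1, where the peak at 135.5 kb went from 43.3, 33.8 and 42.5 tags to 11.3, 10.8 and 16.8 (log2 difference -1.57 ± 0.41 (SE), limma adjusted p = 0.0105 as deposited), and another of its 8 peaks was called higher after scaling. Genes of growth control had 7 peaks with 1 fall, near Ccnd1. Those of the methionine cycle and methylation had 3, all near Tet2, with 1 fall.

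Genes of neural, immune and endothelial cells, which the line should not use, had 10 peaks, with 2 rises and 3 falls after scaling and a median difference of -0.08. The falls were near Cdh5 (2 of 5 peaks) and Gata3, and the rises near Cdh5 (1 of 5) and Epcam. The highest of the fallen peaks, 78.5 kb upstream of the endothelial cadherin gene Cdh5, had 269, 128 and 184 tags in Ctrl and 96.0, 92.7 and 111 in C26. The risen Cdh5 peak, at 130.6 kb, differed by 1.54 ± 0.32 after scaling (SE, limma adjusted p = 0.000168), and the fallen ones by -0.36 and -0.55.

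Neighbouring peaks were compared for direction. Of 737 pairs of far intergenic peaks within 10 kb of each other 86 had both called higher after scaling, 11 both lower and 22 opposite calls. Of 2329 neighbouring pairs farther apart 204, 29 and 93 did. Singly, 17% of all peaks tested and 27.1% of far intergenic peaks were called higher after scaling, and 12.7% and 9.56% lower. Pairs were not counted over all peaks tested. Joining peaks with gaps of up to 10 kb gave 511 groups of 2 or more, and the longest held 11 peaks. In 5 of the 149 groups of 3 or more all peaks were called in 1 direction: higher near Calml3, Tnfsf11, Nfatc2 and Kcna5, and lower near Cpn2.

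The Kcna5 group, near a voltage-gated potassium channel gene, spans 9.82 kb. Its first peak had scaled values of 33.4, 39.2 and 31.3 tags in Ctrl 1 to 3 and 74.9, 76.3 and 76.2 in C26 1 to 3. The Cpn2 group holds 4 peaks in 4.66 kb with scaled differences from -0.40 to -0.30. Another 18 groups of 3 or more held both a rise and a fall.

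In the mouse muscle 1282 of the nearest genes were in the RNA table and 828 had a mean of at least 1 FPKM. limma called none of them between LLC and PBS at an adjusted p under 0.05, and 0 of the 12981 genes tested (0%). At an unadjusted p under 0.05 there were 103 of 828 (12.4%), against 7.63% of all genes tested, 79 higher and 24 lower in LLC. Without PBS 1 there were 194 near the peaks (23.4%) and 20.4% of all genes. The muscle is another system than the cultured cells, with another tumour, and in bulk tissue fewer cells of a type and less RNA per cell cannot be told apart.

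The same counts were taken by the direction at the peak, with no test of the difference. Of genes nearest to a peak that rose after scaling 326 were tested, and 33 were higher and 5 lower in LLC at an unadjusted p under 0.05. Of those nearest to a peak that fell 140 were tested, and 16 were higher and 4 lower. The median log2 RNA difference was 0.04 in the first set and -0.02 in the second.

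At the bounds of the rule, the peak just inside 50 kb (50008 bp, nearest to Spata18) had 27.2, 12.2 and 21.3 tags in Ctrl and 44.5, 42.0 and 54.9 in C26, and the one just outside (49999 bp, Podxl) had 20.1, 10.5 and 16.8 and 11.3, 6.25 and 13.7. Just inside 200 kb (199872 bp, Cadps) the values were 88.5, 34.4 and 48.9 in Ctrl and 30.8, 35.0 and 38.7 in C26, and just outside (200149 bp, D630013N20Rik) 22.3, 10.8 and 17.3 and 7.02, 9.72 and 8.24. The lowest mean inside was 5.22 (Vmn1r238) and the highest outside 4.97 (Boc), and 41 peaks were left out for a mean under 5.

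The counts moved with the scaling and with the libraries used. As deposited, leaving out 1 library at a time gave 300 rises and 210 falls without Ctrl 1, 120 and 1241 without Ctrl 2, 23 and 10 without Ctrl 3, 17 and 3 without C26 1, 21 and 11 without C26 2 and 15 and 9 without C26 3. After scaling the same gave 691 to 762 rises and 205 to 248 falls. Of the 838 rises and 295 falls after scaling 732 and 219 were also called after scaling without Ctrl 1.

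**Figure D5:**
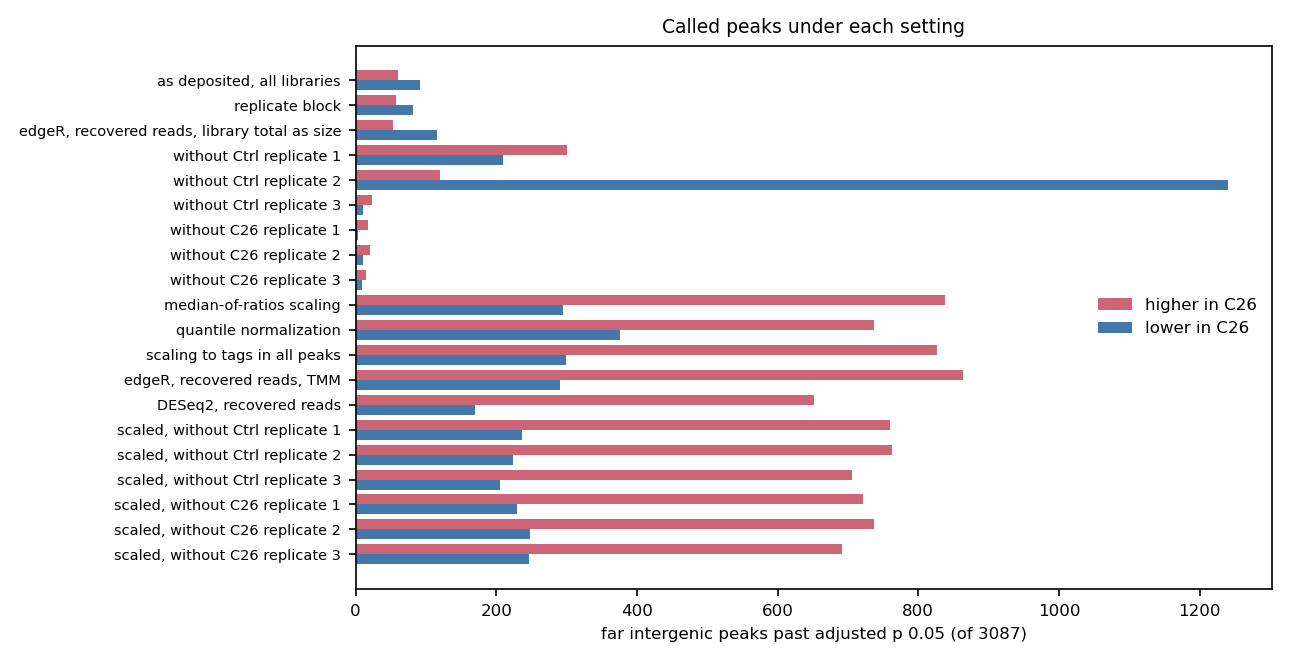
Number of far intergenic peaks past adjusted p 0.05 (x axis) called higher (red) and lower (blue) in C26 under each setting (y axis). The deposited scaling gives 60 and 91, from 15 to 300 rises and 3 to 1241 falls when 1 library is left out, while the settings that equalise the peaks across libraries give 652 to 863 rises and 170 to 376 falls.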

How the data were processed

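The members and the gene lists were chosen with earlier results of these data known. ATAC values are signal: the authors deposited tag numbers of each peak, normalized so that a library holds 10 M, annotated with HOMER in mm10, per the file headers. RNA values are FPKM that the authors made with HOMER, per the file headers. The submitters' processing notes name HISAT2, HOMER, DESeq2, Bowtie2 and MACS2, with no versions. For duplicates, the Tn5 offset and the peak threshold the labels and headers give no setting.

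From these values limma 3.58.1 (R 4.3.3) was fitted with a trend to log2(value + 1) for 37358 peaks with a mean of at least 5, without covariates, and p-values were adjusted by Benjamini-Hochberg over all of them at 0.05. A fold on this scale understates the change of low peaks. Median-of-ratios scaling, quantile normalization, edgeR 4.0.16 and DESeq2 1.42.0 on recovered reads, other pseudocounts and filters, a replicate block and leaving out each library were the alternatives. Multiplied back by the library total, 100% of values were whole reads (tolerance 0.1). RNA was tested likewise, for genes averaging 1 FPKM or more. Per-library shares were tested with exact permutation (scipy 1.17.1). Replicate numbers did not pair the libraries.

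The fits were tested on simulated data for C26 against Ctrl over 37358 peaks. As deposited, 24 of 100 peaks changed by log2 of 1 were found and 66 of 100 changed by 2, with 2 false calls. After scaling 84 and 98 were found, with 10 false calls. The simulation put the scaling factors of the real libraries on all peaks and changed few peaks, as many up as down. Scaling removes those factors by construction, so these numbers cannot tell which scaling holds for the real data. Peaks named are the 12 largest rises and 12 largest falls past the threshold, up to 3 peaks of smallest p per gene list, the 10 nearest genes with most called peaks, the 6 highest means and those at the bounds; others were chosen after their values were seen and are said to be.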

Additional observations from a re-analysis of the deposited data

How the results depend on the processing

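The counts of called peaks depend on how the libraries are scaled. Rises and falls among the far intergenic peaks were 60 and 91 as deposited, 838 and 295 with median-of-ratios scaling, 737 and 376 with quantile normalization, 826 and 299 with scaling to the tags in peaks, 863 and 291 with edgeR and TMM on recovered reads, and 652 and 170 with DESeq2. Without the trend there were 104 and 196, with no filter on low values 37 and 28, with a mean of at least 20 tags 16 and 47, and at adjusted p under 0.1 102 and 229. Leaving out 1 library gave 15 to 300 rises and 3 to 1241 falls as deposited, and after median scaling 760 and 237 without Ctrl 1, 762 and 224 without Ctrl 2, 706 and 205 without Ctrl 3, 721 and 229 without C26 1, 737 and 248 without C26 2 and 691 and 247 without C26 3. Without Ctrl 1, edgeR with TMM gave 767 and 243. Other pseudocounts, edgeR with library totals and a minimum log2 difference of 1 stayed within 1.5 times of the deposited counts. The scaled fits without 1 library and the edgeR fit without Ctrl 1 were added after seeing the data.

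The median difference of -0.39 turned to 0.13 with median or in-peak scaling, 0.06 with quantile normalization and 0.14 with edgeR and TMM; scaled and without 1 library it was 0.12 to 0.14, and 0.14 by edgeR without Ctrl 1. The gap to the median of all peaks stayed within 0.134 to 0.158 except for 0.124 with quantile normalization. The share of peak tags was higher in C26 without any 1 library, but as percent of the library it differed by -0.323. Of the peaks named, the Tet2 peak 82.4 kb upstream turned from -0.31 to 0.21 scaled, 0.16 by edgeR and 0.17 without Ctrl 1 (-0.74 to 0.17 without 1 library). The Cd93 peak turned from -0.23 to 0.30, 0.31 and 0.01 (-0.45 to 0.01 without 1 library), and the Mtdh peak from -0.53 to 0.004 by edgeR.

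The replicate block, for numbers whose libraries did not deviate together (correlations from -0.0168 to 0.00817), gave 58 rises and 82 falls as deposited, 835 and 291 after scaling, with medians of -0.39 and 0.13, and 0 RNA calls. Only RNA quantile normalization called a gene, 1 of 12981, and it was none of the nearest genes. Motif shares in whole peaks and in their centres were not run, for want of a genome. With 3 libraries a group, no exact p can fall under 0.1, and recovery in simulation was 24 of 100 for a log2 change of 1 as deposited, so peaks that were not called may still differ.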
